A study of Zea mays with 10 samples.

Results

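Of 17555 maize probe sets, 36 read near the floor of the scale on both arrays of 1 inbred line and high on all 8 arrays of the other 4 lines. A probe set is a group of short oligonucleotides that together report 1 transcript. A probe set was called off in a line when both of its log2 values were under 3.5, and on when both were 7 or more. The 36 were chosen by these values, so the contrast between the line that is off and the others is a description and carries no test. Only the differences that the limits did not fix were tested. The reverse pattern, on in exactly 1 line and off on the other 8 arrays, held for 41 probe sets.

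The samples were stems of untreated plants of 5 inbred lines, each line with 2 arrays and each array with the RNA of 1 pool of 5 plants. Per the labels, F7025 is a Flint-Dent line derived from IodentXF113bm3, F7033 a Flint-Dent line from (LorenaXF252)XF252, F98902 a Dent line from Iodent, F2 a Flint line from lacaune, and Cm484 a Flint-Dent line from 200-2-1. None of the lines was set as a control. Nothing in the labels says that the 2 pools of a line grew apart. The p-values therefore reflect only how far 2 pools differ, and part of that may be technical. In pooled stem tissue, fewer cells of a type and less RNA per cell cannot be told apart.

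An inbred line is close to homozygous, so it carries 1 version of most genes, and maize lines are known to differ from each other both in sequence and in which genes they hold. The oligonucleotides of an expression array are designed from reference transcripts. When a probe set reads at the floor in 1 line, a transcript that is missing and a transcript whose sequence no longer pairs with the oligonucleotides cannot be told apart from that probe set alone. A second probe set for the same gene gives a separate reading of the same RNA.

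The tissue label was checked against marker genes. All 5 markers of stem with secondary walls (cesa10, cesa11, CesA12, bm1 and cncr1) and all 3 of green tissue were on in all 10 arrays, between 9.49 and 12.50 and between 8.99 and 12.97. Of the 11 endosperm markers 6 had a probe set, none was on in all arrays, 3 were off in all, and zp27 and bt2 reached 7.13 and 7.49. The only pollen marker with a probe set, expB9, stayed between 2.13 and 2.23, and neither root marker (rth1, rth3) was matched. Across the arrays 35.7% to 37.4% of probe sets were on and 39.2% to 40.2% off. The correlation between the arrays of a line was between 0.986 and 0.997, lowest in F98902. The labels give 20 µg of extracted RNA for the second array of F98902, F2 and Cm484 and 60 to 100 µg for the rest.

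The 36 probe sets were spread unevenly over the lines. F98902 had 13, F2 had 11, F7033 had 6, F7025 had 4 and Cm484 had 2, so F98902 and F2 held 24 of them. As a share of the probe sets on in the other 8 arrays, this was 0.259% of 5011 in F98902, 0.225% of 4888 in F2, 0.121% of 4960 in F7033, 0.0809% of 4944 in F7025 and 0.041% of 4880 in Cm484. The reverse pattern gave 13 in F98902 (0.218% of 5964 probe sets off in the other 8 arrays), 10 in F7033 (0.171% of 5859), 10 in F2 (0.171% of 5844), 6 in F7025 (0.103% of 5834) and 2 in Cm484 (0.0345% of 5793). At these limits Cm484 had the fewest and F98902 the most in both directions. The order of F98902 and F2 on the off side was not stable: F2 had 10 and F98902 9 with an off limit of 3, F2 had 14 and F98902 13 without the 3 arrays of least RNA, and both had 13 without the second F98902 array. Without the first Cm484 array, 4 probe sets would be on in Cm484 alone. These counts are fixed by the limits and have no test. For scale, 4788 probe sets were on and 5709 off in all 10 arrays.

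**Figure D1:**
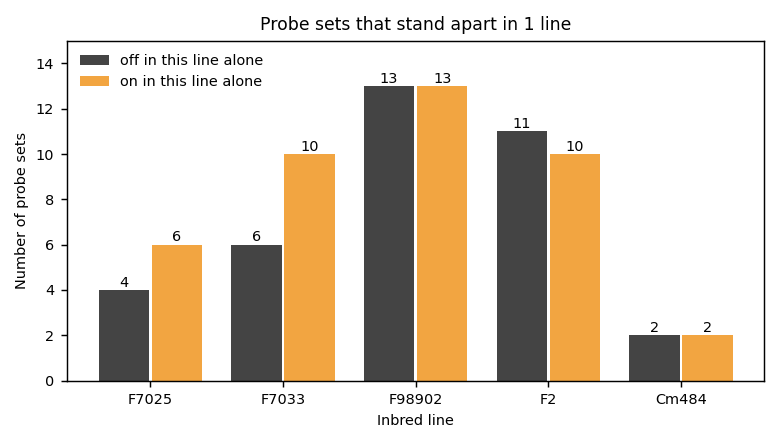
Number of probe sets (y axis) off in 1 inbred line alone (dark bars) and on in 1 line alone (orange bars), by line (x axis). F98902 had 13 of each, Cm484 2 of each, and in F7033 the count of on (10) was above the count of off (6).

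The limits themselves force a wide gap between on and off, so the gaps and folds below are descriptions. Of the 5011 probe sets on in the 8 arrays outside F98902, 4867 had an F98902 mean of 7 or more, 106 a mean from 6 to 7, 18 from 5 to 6, 6 from 3.5 to 5 and 14 under 3.5. Counted alike, 9 F2 means lay from 3.5 to 5 and 12 under 3.5. The 2 counts were 4 and 6 for F7033, 3 and 6 for F7025, and 2 and 2 for Cm484. Over the 36, the 2 arrays of the line that is off read 1.80 to 3.49 and the other 8 arrays 7.03 to 12.27. The gap between the lowest on array and the highest off array was 4.06 to 8.60 log2 units (median 5.09). On both arrays of the line, 28 of the 36 were under 3. Because GCRMA holds dim probe sets at a common floor, folds were taken against log2 4 and are lower bounds. They ran from at least 11.3-fold to at least 227.8-fold, with a median of at least 31.9-fold.

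The probe sets closest to the limits were the following. Zm.16796.2.A1_x_at, off in F7025, had the highest off values of a member, 3.43 and 3.49, and Zm.17923.1.A1_at, also off in F7025, the lowest on value, 7.03 on the first Cm484 array. Just outside, Zm.16911.1.A1_at read 2.56 and 3.59 in F7025 against 10.94 to 12.44 elsewhere. Zm.13138.1.S1_at was off in Cm484 (2.06 and 2.02) but missed through a single F7033 array at 6.99. In all, 8 probe sets failed the off limit and 13 the on limit on 1 array only. In the reverse set the member nearest the off limit was Zm.14687.1.S1_at, at 3.41 on an F98902 array, and the nearest to the on limit was Zm.8737.1.A1_at, at 7.08 in F7033. Zm.5424.1.S1_at missed through an F98902 array at 3.54 and Zm.4741.1.A1_at through an F2 array at 7.00.

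The second arrays repeated most choices made on the first. With the limits applied to the 5 first arrays alone, 42 probe sets were off in exactly 1 line. On the second array of that line, 40 of the 42 were under 3.5 and 41 under 4. In F98902 it was 13 of 13, in F2 13 of 14, in F7033 6 of 6, in F7025 6 of 7 and in Cm484 2 of 2. The whole pattern, with all 5 second arrays past their limits, repeated for 36 of the 42. These 36 are the members by definition, because the rule asks for both arrays of every line. With the second arrays choosing, 45 of 53 were under 3.5 on the first array of the line. The whole pattern then repeated for 36 of the 53, and for 6 of 13 in F7033. In the reverse pattern, 44 of 56 chosen on either set of arrays were 7 or more on the other, and 52 of 56 were 6 or more. The whole reverse pattern repeated for 41 of 56 either way, and these 41 are again the members by definition. Shares for other probe sets past a limit on 1 array are not given. The counts therefore describe how alike the arrays of a line are and are no independent test of the members.

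**Figure D2:**
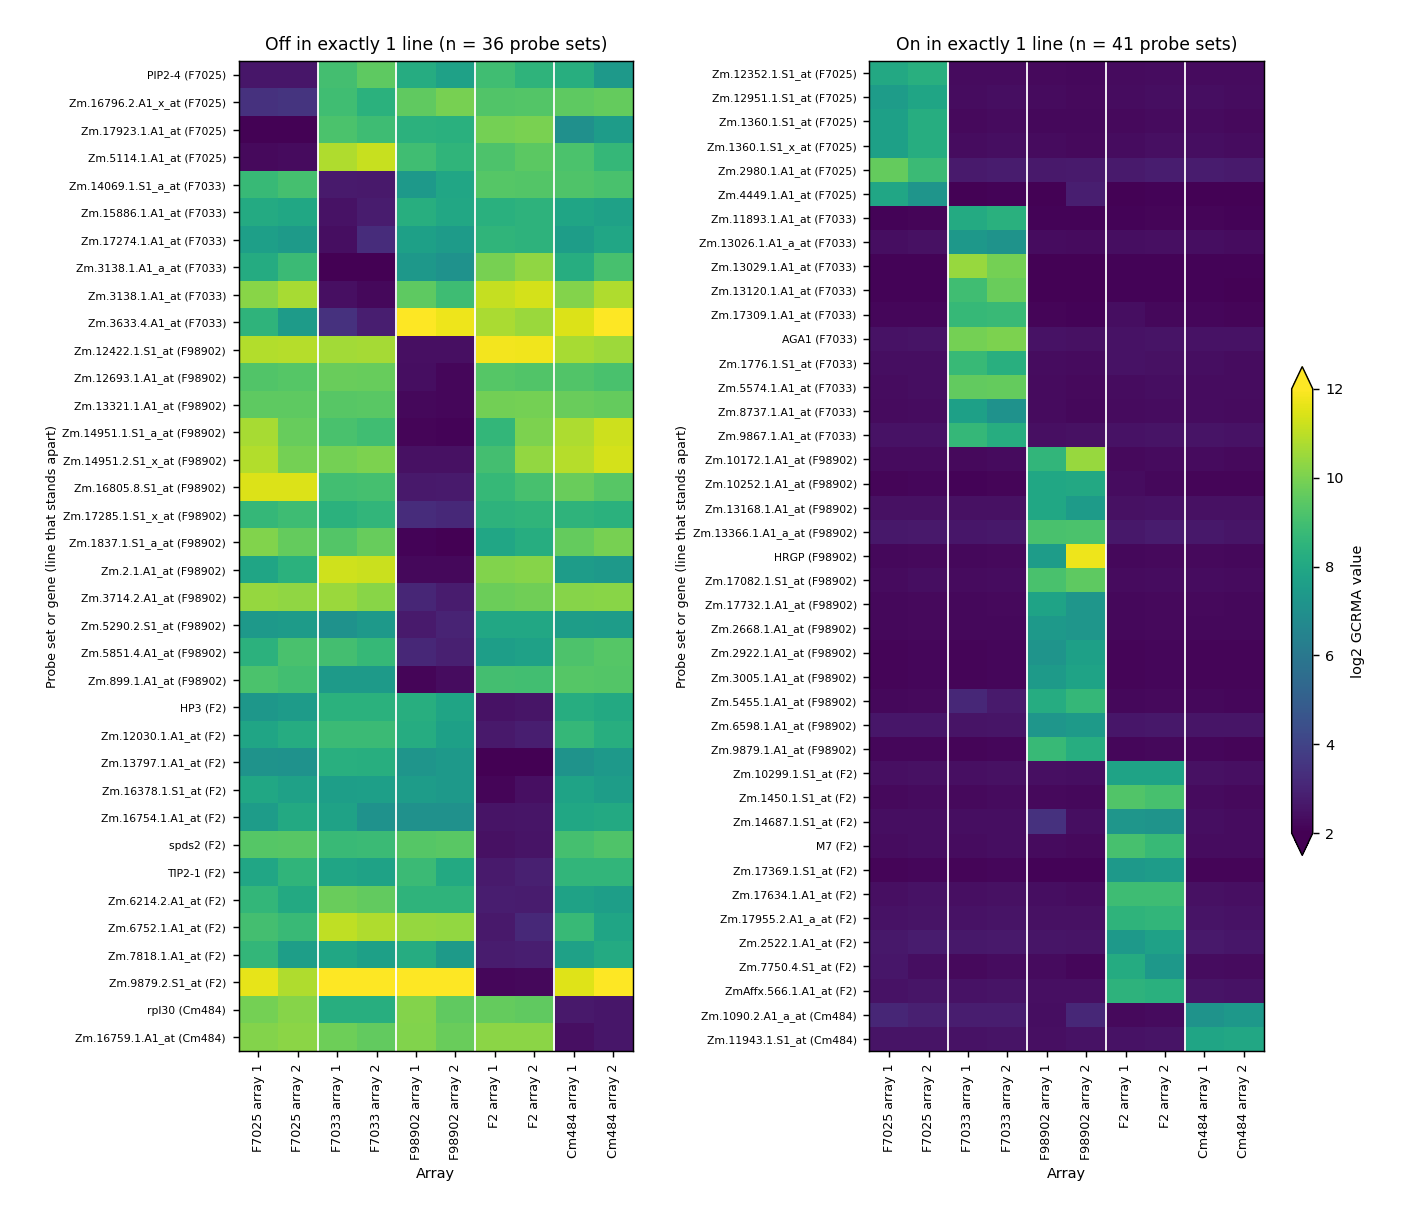
Log2 GCRMA values (colour, from 2 in dark blue to 12 in yellow, values outside in the end colours) of the 36 probe sets off in 1 line (left) and the 41 on in 1 line (right), with 1 row per probe set or named gene and 1 column per array, white lines between inbred lines. The line in brackets stands apart on both of its arrays, and among the 36 the colours of the other 4 lines also differ.

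The annotation used here names 1 gene for 8.27% of the probe sets and for 5 of the 36 (13.9%). These 5 were a pair of water channels (PIP2-4 and TIP2-1), a phosphotransfer protein of hormone signalling (HP3), a spermidine synthase (spds2) and a ribosomal protein (rpl30). Aquaporins are membrane channels that let water pass. PIP proteins sit in the plasma membrane and TIP proteins in the membrane of the vacuole, and both help to move water into and out of cells.

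PIP2-4 (LOC541890), a plasma membrane aquaporin, was off in F7025. It read 2.60 and 2.61 in F7025, 9.02 and 9.51 in F7033, 8.19 and 7.71 in F98902, 8.95 and 8.51 in F2, and 8.26 and 7.43 in Cm484. It was at least 21.8-fold lower in F7025 than the mean of the other lines. Among the 4 lines where it was on, F7033 was highest, above F98902 by 1.32 ± 0.31 log2 units (SE, adjusted p = 0.01) and above Cm484 by 1.42 ± 0.31 (adjusted p = 0.0073). The other 4 pairs did not pass, with adjusted p from 0.0537 to 0.824. The fit uses the same spread of a probe set for all lines, and the rule holds the off line near the floor. There the arrays of PIP2-4 differed by 0.01 log2 units, which can lower its standard errors and p-values. In their off lines the arrays differed by 0.13 for TIP2-1, 0.08 for HP3, 0.07 for spds2 and 0.08 for rpl30. The p-values between on lines given below for these genes carry the same limit.

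Other PIP2 genes were chosen for comparison after their values had been seen. In F7025, a probe set of PIP2-1 was on at 11.44 and 11.79, which was 0.64 ± 0.17 above the mean of the other lines (adjusted p = 0.019). F2 lowered that mean, at 8.85 and 9.27, while the remaining lines read 11.22 to 12.04. Another PIP2-1 probe set was off in every line, at 1.84 to 1.88. PIP2-6 read 5.40 and 5.67 in F7025, 0.88 ± 0.21 above the others (adjusted p = 0.0133), with F2 at 2.57 and 2.71, Cm484 at 3.78 and 3.79, F98902 at 5.52 and 5.71, and F7033 at 6.13 and 7.00. PIP2-2 (0.77 ± 0.34, adjusted p = 0.11) and the shared probe set of PIP2-3 (0.35 ± 0.19, adjusted p = 0.183) did not pass. Another PIP2-3 probe set was off in every line, at 2.30 to 2.45. PIP2-5 read 2.57 and 2.82 in F7025 and stood above the floor only in F2, at 5.12 and 4.86. Its difference of -0.69 ± 0.14 in F7025 (adjusted p = 0.00582) came with F2, since F7033, F98902 and Cm484 read 2.57 to 2.94, the level of F7025. The share of all tested probe sets called in F7025 was 16.6% higher and 20.8% lower.

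TIP2-1 (LOC541894), a vacuolar aquaporin, was off in F2. It read 2.74 and 2.87 in F2, 7.93 and 8.55 in F7025, 7.88 and 7.76 in F7033, 8.80 and 8.06 in F98902, and 8.58 and 8.57 in Cm484, at least 19.3-fold higher in the other lines. Among those 4 lines none of the 6 pairs passed in limma and 1 had an unadjusted p under 0.05 (F7033 minus Cm484, -0.76 ± 0.27, adjusted p = 0.0532). Of its relatives, TIP2-2 was at the floor in every line. TIP2-3 read 2.80 and 2.27 in F2, 2.80 and 2.76 in F7033, and 2.12 and 1.88 in F98902, and was higher only in F7025 (5.12 and 5.21) and Cm484 (5.39 and 4.99). Its difference of -1.25 ± 0.18 in F2 (adjusted p = 0.000859, with 17.7% of all tested probe sets lower in F2) rests on those 2 lines.

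HP3 (LOC542596) was off in F2. Its product is a histidine phosphotransfer protein, a carrier that passes phosphate from hormone receptors such as those of cytokinin to response regulators. It read 2.50 and 2.58 in F2, 7.31 and 7.50 in F7025, 8.38 and 8.39 in F7033, 8.25 and 7.83 in F98902, and 8.24 and 8.08 in Cm484, at least 16.0-fold higher in the other lines. F7025 was the lowest line in which it was on, with a difference of -0.98 ± 0.17 from F7033 (adjusted p = 0.0028), -0.76 ± 0.17 from Cm484 (adjusted p = 0.0215) and -0.63 ± 0.17 from F98902 (adjusted p = 0.0201). Other carriers named by the annotation, chosen after their values were seen, were on in F2: HP1 at 9.26 and 9.36 and HP2 at 9.98 and 10.05. Their differences from the mean of the other lines were -0.01 ± 0.10 (adjusted p = 0.938) and -0.01 ± 0.10 (adjusted p = 0.919).

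The gene spds2 (LOC732743) was also off in F2. It codes for a spermidine synthase, an enzyme of the polyamine pathway that makes spermidine from putrescine. It read 2.45 and 2.52 in F2, 9.38 and 9.41 in F7025, 8.77 and 8.81 in F7033, 9.37 and 9.44 in F98902, and 9.05 and 9.24 in Cm484, at least 36.4-fold higher in the other lines. The 2 arrays of each line lay close together. F7033 was the lowest of the 4, with a difference of -0.61 ± 0.12 from F98902 (adjusted p = 0.0041) and -0.35 ± 0.12 from Cm484 (adjusted p = 0.0445), and F7025 was 0.60 ± 0.12 above it (adjusted p = 0.0047).

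The gene rpl30 (LOC541668) was off in Cm484. It codes for a protein of the large ribosomal subunit, part of the machinery every cell uses to make protein. It read 2.68 and 2.60 in Cm484, 9.90 and 10.17 in F7025, 8.26 and 8.27 in F7033, 10.14 and 9.56 in F98902, and 9.65 and 9.57 in F2, at least 43.4-fold higher in the other lines. F7033 stood between the off line and the rest. F7025 was 1.77 ± 0.19 above it (adjusted p = 0.0002), and F7033 differed by -1.59 ± 0.19 from F98902 (adjusted p = 0.0004) and by -1.34 ± 0.19 from F2 (adjusted p = 0.001). Other large-subunit genes, chosen after their values were seen, were on in Cm484. RPL19 read 10.36 and 10.71 there (0.67 ± 0.25 above the others, adjusted p = 0.068) and rpl29 9.04 and 9.17 (-0.22 ± 0.13, adjusted p = 0.215). The brighter probe set of RPL10 read 12.04 on both Cm484 arrays, 0.40 ± 0.09 above the others (adjusted p = 0.009), and rpl39 11.75 and 11.78, 0.55 ± 0.11 above (adjusted p = 0.007). The dimmer RPL10 probe set read 10.96 and 11.00 in Cm484 and did not pass (0.24 ± 0.11, adjusted p = 0.114). Of all tested probe sets 18.4% were higher and 18.5% lower in Cm484.

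**Figure D3:**
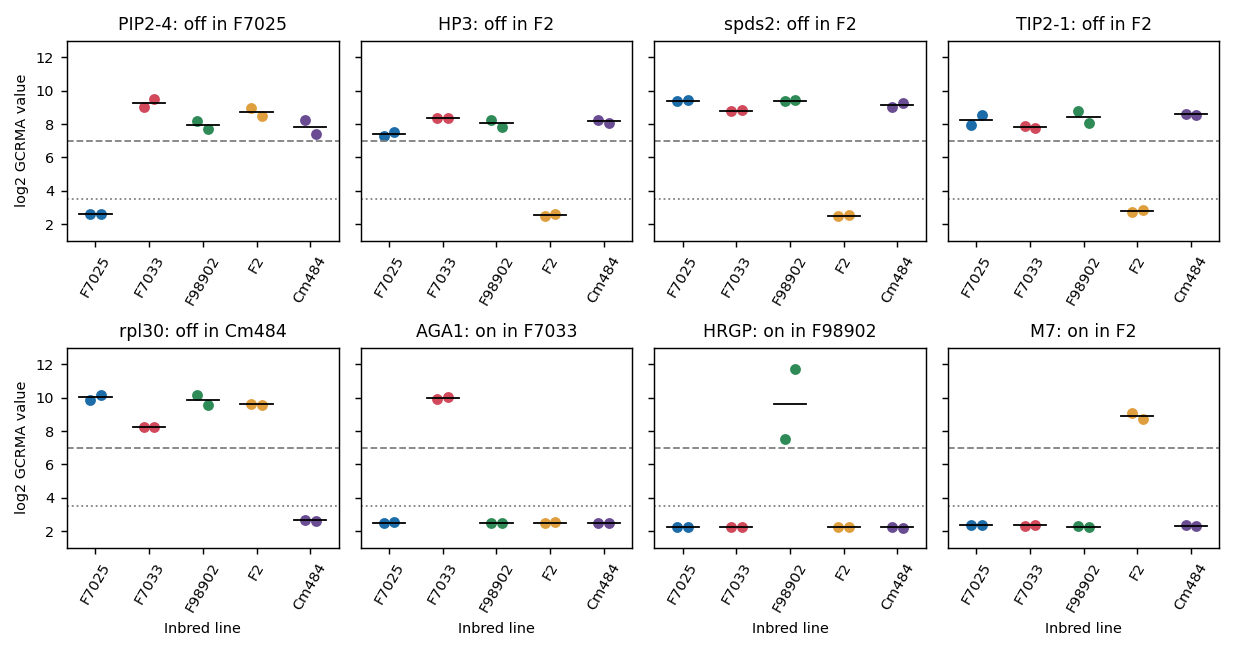
Log2 GCRMA values (y axis) by inbred line (x axis) for the 5 named genes off in 1 line and the 3 on in 1 line, with 1 point per array and a bar at the mean of the 2 arrays, the dotted line at 3.5 and the dashed line at 7. The 2 arrays of a line lie close together except for HRGP in F98902, at 7.52 and 11.73.

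The other 31 had no gene name here, and the widest gap of each line is given by probe set. Zm.9879.2.S1_at had the widest of all. It read 2.17 and 2.22 in F2 and 10.81 to 12.27 elsewhere, a gap of 8.60 log2 units. In F98902 it was Zm.12422.1.S1_at, at 2.41 and 2.40 against 10.53 to 11.81 elsewhere. In Cm484, Zm.16759.1.A1_at read 2.41 and 2.62 against 9.59 to 10.27. In F7033, Zm.3138.1.A1_at read 2.42 and 2.22 against 8.91 to 11.36. In F7025, Zm.5114.1.A1_at read 2.26 and 2.30 against 8.55 to 11.15. The gap was 6.25 to 8.60 log2 units over these 5.

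Many members also differed among the lines in which they were on. The range of the 4 line means was 0.30 to 3.88 log2 units (median 1.17). All 36 members passed the filter on dim probe sets, each through its 8 on arrays. Of the 216 comparisons between 2 lines in which a member was on, 97 (44.9%) passed an adjusted p of 0.05. The share was 33.1% over all probe sets on in both lines and 37.4% over all tested probe sets. F7033 against F2 had the highest share, 14 of 19 members (73.7%, against 32% of probe sets on in both lines). F7025 against Cm484 had the lowest, 5 of 30 (16.7% against 13.7%). Shares were 13 of 26 for F7025 and F7033 (50.0% against 35.9%), 11 of 21 for F7025 and F2 (52.4% against 35.8%) and 7 of 19 for F7025 and F98902 (36.8% against 34.9%). For F7033 they were 9 of 17 with F98902 (52.9% against 39.3%) and 13 of 28 with Cm484 (46.4% against 39.1%). For the remaining pairs they were 6 of 12 for F98902 and F2 (50.0% against 35.2%), 7 of 21 for F98902 and Cm484 (33.3% against 32%) and 12 of 23 for F2 and Cm484 (52.2% against 33.9%). The members' share was the higher one in all 10 pairs. It was higher by under 4 percentage points in 3: F7025 with F98902, F7025 with Cm484, and F98902 with Cm484. The fit takes 1 spread per probe set over all 5 lines, and the rule holds a member's off line near the floor. There the 2 arrays differed by a median of 0.07 log2 units, which can lower a member's standard error. The members' higher share therefore cannot be read as a greater difference among the on lines. Comparisons of a member share arrays with each other, so the 216 are not independent, and without the 3 arrays of least RNA 59 passed.

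Members differed in how many pairs of on lines passed. In 2 of the 36 all 6 pairs of on lines passed. Zm.2.1.A1_at, off in F98902 at 2.23 and 2.21, read 11.30 and 11.20 in F7033, 10.09 and 10.18 in F2, 7.89 and 8.40 in F7025, and 7.53 and 7.39 in Cm484. Zm.17923.1.A1_at, off in F7025 at 2.04 and 2.07, read 9.90 and 9.98 in F2, 9.16 and 8.89 in F7033, 8.42 and 8.33 in F98902, and 7.03 and 7.51 in Cm484. In 4 of the 36 no pair passed: TIP2-1, Zm.16378.1.S1_at, Zm.17285.1.S1_x_at and Zm.7818.1.A1_at. At an unadjusted p under 0.05, TIP2-1 and Zm.16378.1.S1_at had 1 pair each and the others 0. The largest group, 14 members, had 3 pairs that passed. The small spread of the off line enters these calls too, and no such counts are given for other probe sets. They describe single members and cannot be read as a trait of the 36.

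No named member had a second annotated probe set. Probe sets were therefore matched by the cluster number in their identifier, the group of transcript sequences from which they were designed (Zm.3714.1 and Zm.3714.2 share cluster Zm.3714). This match was chosen after seeing the data, and a large cluster may hold several genes. Of the 36 members, 20 were alone in their cluster. The other 16 lay in 14 clusters with 60 probe sets that were not members. For 13 members in 11 clusters, at least 1 other probe set was on in all 8 arrays of the other lines and so could show whether the cluster was silent too.

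The other probe sets of these clusters were mostly on, as probe sets in general were. There were 24 such probe sets that were not members. In the line where the member was off, 22 of them were on and 2 lay between the limits. Of all probe sets on in the other 8 arrays, 95.5% (F98902) to 98.1% (Cm484) were on in the remaining line too, so 22 of 24 is no more than any such probe set shows. For 10 members in 9 clusters, another probe set of the cluster was on in the very line where the member was off. The difference of the 24 from the mean of the other lines had a median of -0.21 and ran from -4.08 to 0.35. Some of the 24 differ only in the ending of their identifier, such as Zm.16796.1.A1_a_at and Zm.16796.1.A1_x_at, the 2 of F7025. These read 9.42 to 9.52 there, and the 24 are not independent. Of the 24, 11 were called lower and 0 higher in limma. By line the lower calls were 5 of 14 in F98902 (23.3% of all tested probe sets were lower there), 3 of 7 in F7033 (23.2%), 2 of 2 in F7025 (20.8%) and 1 of 1 in F2 (17.7%). The share called higher was 22.2% in F7033 and 16.6% in F7025, and is not given for F98902 and F2. All these shares include dim probe sets, while the 24 had to be on in 8 arrays, so they are not a matched background. Without the 3 arrays of least RNA, 7 were called lower.

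In 4 F98902 clusters with a single comparable probe set, that probe set did not pass the test. Zm.1837.1.S1_a_at read 2.11 and 1.80 in F98902 while Zm.1837.1.S1_at read 9.37 and 9.61, 0.17 ± 0.14 from the others (adjusted p = 0.349). Zm.3714.2.A1_at read 3.07 and 2.76 while Zm.3714.1.A1_at read 9.46 to 9.83 (-0.07 ± 0.11, adjusted p = 0.629). Zm.5290.2.S1_at read 2.73 and 3.01 while Zm.5290.1.S1_at read 9.34 to 9.39 (0.17 ± 0.15, adjusted p = 0.37). Zm.5851.4.A1_at read 3.10 and 2.88 while Zm.5851.1.A1_at read 9.56 to 9.74 (-0.16 ± 0.10, adjusted p = 0.216). In each case 1 probe set of a cluster was at the floor and another above 9 in the same RNA. Cluster Zm.5851 is large, and other probe sets of it, not on in all 8 other arrays, were low in F98902. Zm.5851.2.A1_at read 2.18 and 2.38 there against 2.26 to 7.65 elsewhere, Zm.5851.6.S1_x_at 4.52 and 4.53 against 4.55 to 10.16, Zm.5851.11.A1_a_at 5.76 and 5.93 against 5.22 to 10.83, and Zm.5851.12.A1_at 2.63 and 2.68 against 4.08 to 5.32. These 4 were picked out after their values were seen.

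In other clusters at least 1 other probe set was lower in the same line but well above the floor. In F7025, Zm.16796.2.A1_x_at was off while Zm.16796.1.A1_a_at read 9.42 to 9.51, a difference of -0.74 ± 0.11 from the others (adjusted p = 0.00113). In F2, Zm.6214.2.A1_at read 2.79 and 2.78 while Zm.6214.1.A1_a_at read 7.62 to 7.80, a difference of -1.12 ± 0.15 (adjusted p = 0.0005). In F98902, Zm.17285.1.S1_x_at was off while Zm.17285.1.S1_s_at, a probe set whose oligonucleotides match several transcripts, read 6.95 to 7.17, a difference of -0.68 ± 0.11. It lay between the limits. The largest drop was in cluster Zm.16805, where Zm.16805.3.S1_a_at read 6.84 and 8.11 in F98902 against 10.11 to 13.48 elsewhere, so it too lay between the limits. The other 7 comparable probe sets of that cluster were on in F98902, and 4 of the 8 were called lower. In cluster Zm.3633, where Zm.3633.4.A1_at was off in F7033 (3.42 and 2.83), 7 other probe sets were on in that line. Of these 7, 3 were called lower. The probe set of the named gene glu1 is in this cluster too. It read 5.04 and 3.67 in F7033 and 1.95 to 9.15 elsewhere (-2.32 ± 0.90, adjusted p = 0.0665).

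A pair of clusters had more than 1 member off in the same line. Both probe sets of Zm.3138 were off in F7033, Zm.3138.1.A1_a_at at 1.81 and 1.82 and Zm.3138.1.A1_at at 2.42 and 2.22, and the cluster had no other probe set. In F98902, Zm.14951.1.S1_a_at (2.12 and 2.10) and Zm.14951.2.S1_x_at (2.46 and 2.44) were both off, while Zm.14951.4.S1_at stayed at 10.98 and 11.66. Other probe sets of this cluster were not on in all 8 other arrays. Zm.14951.1.S1_x_at read 2.36 and 4.62 in F98902 against 5.72 to 7.70 elsewhere (-3.31 ± 0.53, adjusted p = 0.00155). Zm.14951.3.S1_x_at read 5.06 and 5.50 against 4.31 to 5.34, and Zm.14951.1.A1_at and Zm.14951.1.S1_at were off in every line. Zm.3138 was thus the only cluster of the 11 with every comparable probe set off.

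**Figure D4:**
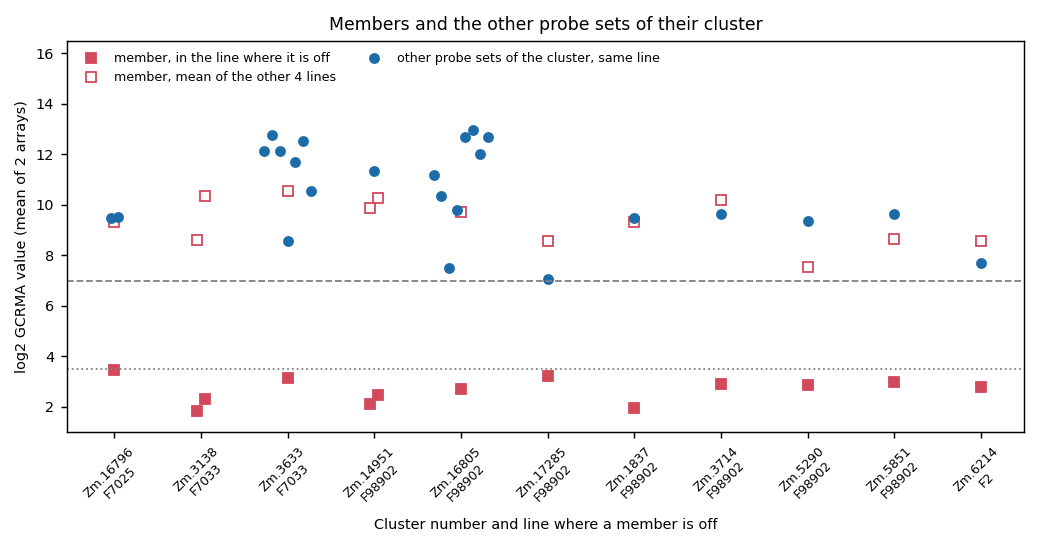
Log2 GCRMA values (y axis, mean of 2 arrays) for the 11 clusters (x axis, with the line where a member is off) that hold a second probe set on in the other 8 arrays. Filled squares are members in the line where they are off, open squares the same members averaged over the other 4 lines, and circles the other comparable probe sets of the cluster in the same off line, with the dotted line at 3.5 and the dashed line at 7. All circles lie above 7, and only Zm.3138 has none.

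Cluster Zm.9879 had 1 probe set off in a single line and another on in a single line. Zm.9879.2.S1_at was off in F2 alone, and Zm.9879.1.A1_at was on in F98902 alone (8.75 and 8.25, at most 2.20 elsewhere). In F98902 both were therefore on, Zm.9879.2.S1_at at 12.19 and 12.22. In cluster Zm.5851, where Zm.5851.4.A1_at was off in F98902, Zm.5851.9.S1_at read 6.17 and 6.63 in F98902 and 2.10 to 2.14 elsewhere. This second probe set missed the on limit, and it was picked out after its values were seen.

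The kinds of probe set were close to the background. Of the 36, 29 (80.6%) carried the plain suffix of a probe set designed to match a single transcript, against 80.8% of the 5531 probe sets on in all 8 arrays of some 4 lines. The suffix _a, for transcripts of 1 gene, was carried by 11.1% against 12.3%. The suffix _x, whose oligonucleotides can match unrelated transcripts, was carried by 8.33% (3 of 36) against 4.86%. None carried the suffix _s, shared between transcripts, against 2.06%.

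The 41 probe sets on in 1 line had a median level of 8.16 log2 there, against 8.98 for the 36 over their on lines. In the line that is on they read 7.08 to 11.73, and elsewhere 2.04 to 3.41. The bounds on the fold ran from 9.31 to 72.8 (median 17.9). All 41 passed the filter, each only through the 2 arrays of its line. The 2 arrays of the on line differed by a median of 0.35 log2 units and by more than 1 in 2 probe sets, both in F98902.

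The 3 named genes of the reverse set were AGA1, HRGP and M7. AGA1 (LOC606463), an alkaline alpha-galactosidase that splits galactose from sugars of the raffinose family, was on in F7033 at 9.93 and 10.02 and between 2.46 and 2.54 elsewhere, at least 62.9-fold higher. Its relative AGA2 read 4.12 to 4.22 in F7033, -0.02 ± 0.17 from the others (adjusted p = 0.935), and AGA3b at most 2.49 there, with 22.2% of all tested probe sets higher in F7033. M7, for which no role is given here, was on in F2 at 9.09 and 8.74 and between 2.25 and 2.37 elsewhere, at least 30.2-fold higher. Its second probe set read 6.07 and 6.45 in F2 and 2.15 to 2.24 elsewhere. This probe set passed the filter on dim values only through F2, so a test could not have come out otherwise and its values are a description.

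HRGP (LOC542371), a hydroxyproline-rich glycoprotein of the cell wall, was on in F98902 at 7.52 and 11.73 and between 2.21 and 2.26 elsewhere. Its arrays differed by 4.22 log2 units, and the brighter one came from 20 µg of RNA against 70 µg for the other. The part of the amount of RNA in this result was not tested. Its second probe set showed the same split, at 5.54 and 11.54 in F98902 and 2.14 to 2.18 elsewhere. It too passed the filter only through the line where it was high, and no test is given. The other uneven probe set was Zm.10172.1.A1_at, at 8.58 and 10.45. The rule itself places both F98902 arrays of HRGP and Zm.10172.1.A1_at above all 8 arrays of the other lines.

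Second probe sets in the clusters of the reverse set were partly off and partly above the off limit in the line. Of the 41, 26 were alone in their cluster. There were 11 other probe sets, not members, that were off in all 8 arrays of the other lines, of which 7 were off in the line too and 4 lay above the off limit in it. Besides those of HRGP and M7 these 4 were Zm.1090.3.A1_x_at (6.09 and 6.37 in Cm484, at most 3.28 elsewhere) and Zm.1090.4.S1_x_at (4.92 and 5.16 in Cm484, at most 2.46 elsewhere), beside Zm.1090.2.A1_a_at. Of all probe sets off in the other 8 arrays, most had a mean under 3.5 in the remaining line as well. This held for 5743 of 5859 in F7033, 5789 of 5964 in F98902, 5747 of 5844 in F2 and 5739 of 5793 in Cm484. The 11 counts have no test, since such a probe set could enter the fit only through the line where it was high. For 3 members a probe set of the same cluster was on in all lines. One was Zm.17309.1.A1_s_at, at 8.17 to 8.52 in F7033 and 7.79 to 9.17 elsewhere (-0.30 ± 0.15, adjusted p = 0.148), beside Zm.17309.1.A1_at, which read 8.70 and 8.77 in F7033 and at most 2.38 elsewhere.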

How the data were processed

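The deposited values are log2 expression values for 17734 probe sets on 10 arrays of biotin-labelled stem RNA, made by the authors with GCRMA, per the submitters' processing notes, with no version given. GCRMA adjusts background by probe sequence, makes the arrays alike in distribution and summarises each probe set, so a shift of all genes in a line is removed. Values ran from 1.35 to 14.6, from which the log2 scale was inferred. Depth does not apply to arrays, and the number of arrays limits the precision. No further normalization was applied.

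The 113 AFFX and 66 RPTR control probe sets were left out. Members, lists and limits (off under 3.5, on at 7 or more) were chosen with earlier results of these data known. A fold is the mean of the on lines against the off line set to log2 4, or the reverse. Tests were limma 3.58.1 in R 4.3.3 (lmFit and eBayes with trend), all 10 arrays in 1 fit with line as the only term, over the 11067 probe sets with log2 of at least 4 on 2 or more arrays. Lines were compared in 10 pairs, and each line with the unweighted mean of the other 4. P-values were adjusted over probe sets by Benjamini-Hochberg per contrast, with a threshold of 0.05, and the fit was tested on simulated data. Named are all annotated members and their other probe sets, the widest gap per line, the nearest to each limit, and the markers. Other genes were chosen after their values were seen. The annotation gave 1 gene for 1452 probe sets and several for 1. Names are those of the reference gene table (assembly Zm-B73-REFERENCE-NAM-5.0). Tables used Python 3.11.15 with pandas 2.3.3 and plots matplotlib 3.10.9. Alternatives were other limits, filters and normalizations, array weights, a replicate block and left-out arrays.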

Additional observations from a re-analysis of the deposited data

How the results depend on the processing

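The counts turned most on the on limit. At log2 6, 69 probe sets were off in exactly 1 line (F7025 10, F7033 17, F98902 17, F2 21, Cm484 4) and 78 on in exactly 1 (10, 20, 24, 17 and 7 in the same order). At log2 8, 15 were off (2, 1, 8, 2 and 2) and 20 on (2, 8, 5, 5 and 0). With the off limit at 3, 28 were off (3, 4, 9, 10 and 2) and 1 was on in Cm484 alone. Shifting arrays to a common median gave 3 off in Cm484, and an off limit of 4, or leaving out the 3 arrays of least RNA, gave 3 on in Cm484. At log2 6, F2 had more off than F98902, and F7033 as many. The same order of F2 over F98902 held at off limit 3 and without the 3 arrays of least RNA (14 and 13). A left-out array removes a condition of the rule, so counts of members could then rise but not fall. Leaving out 1 array at a time gave 36 to 41 off (4 to 5, 6 to 8, 13 to 15, 11 to 13 and 2 to 3) and 41 to 46 on (6 to 9, 10 to 13, 13 to 17, 10 to 12 and 2 to 4, with 4 in Cm484 without its first array). It gave 77 to 105 member comparisons that passed, 8 to 11 second probe sets called lower, and log2 differences of 6.37 to 6.38 for the second probe set of HRGP and 4.05 for that of M7, both fixed in direction by the filter. Without the 3 arrays of least RNA, 59 member comparisons passed in place of 97 and 7 second probe sets were called lower in place of 11. In that fit, and with 1 array left out, a line with a lone array is assumed to vary like the others. HRGP gave no value with an F98902 array left out, without the 3 arrays, or with a filter at log2 6, and M7 none with an F2 array left out, since their second probe sets then failed the filter. Replicate numbers did not pair the samples over all lines (correlations of deviations from -0.34 to 0.34). The 3 pairs among F98902, F2 and Cm484, whose second arrays came from 20 µg of RNA, correlated at 0.31, 0.34 and 0.26. With the replicate block 97 comparisons and 11 second probe sets passed, as without it. No other alternative outside those named moved a count by 1.5 times or more or changed a direction.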

Other observations

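In raw counts at these limits, fewer probe sets were off than on in exactly 2 lines. The counts are not given as shares of the probe sets on or off in the other lines, or at other limits. Over the 10 pairs of lines, 8 probe sets were off on both arrays of exactly 2 lines and on in the other lines. F98902 with F2 had 3, F98902 with Cm484 had 2, and F7025 with F2, F7025 with Cm484 and F7033 with F2 had 1 each. The reverse, on in exactly 2 lines, held for 23, with 6 in F7033 and F98902 and 5 in F98902 and Cm484.

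The named genes were set beside their neighbours in the gene order of the B73 assembly (Zm-B73-REFERENCE-NAM-5.0), where 7 of the 8 could be placed. These lines may have another gene order. Within 20 genes of PIP2-4, pal3, a phenylalanine ammonia-lyase gene 11 genes away, read 13.03 and 13.05 in F7025 (-0.13 from the mean of the other lines, adjusted p = 0.181). The gene uaz7c01b01, 13 genes from PIP2-4, was higher in F7025 by its 2 probe sets (0.38, adjusted p = 0.00339, and 0.34, adjusted p = 0.0181). GP, 17 genes from TIP2-1, read 9.82 and 9.84 in F2 (0.13, adjusted p = 0.495). KIN8, 8 genes from HP3, was at the floor in all lines. Around AGA1, on in F7033 alone, mEmBP-1a (3 genes away) was 0.69 higher in F7033 (adjusted p = 0.00314), smt1 (15 genes away) fell by 1.38 (adjusted p = 0.000116), and KAPP and the brighter CesA-4 probe set did not pass (adjusted p = 0.668 and 0.0954). These neighbours were looked up after the members were known.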
